A study of Saccharomyces cerevisiae with 7 samples.

Results

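The flocculin genes FLO1, FLO5, FLO9, FLO10 and FLO11 and the genes of their transcriptional activators FLO8, MSS11 and TEC1 were followed in budding yeast, Saccharomyces cerevisiae, lacking a subunit of the Ssn6-Tup1 corepressor. The 8 genes were taken by name, and 7 of them had a probe set, out of 5449 genes measured. No probe set was annotated to FLO5, whose level is not analysed here. Total RNA was measured on a one-colour Affymetrix array in 2 samples of an ssn6 knockout, 2 samples of a tup1 knockout and 3 wild-type samples. All 7 came from the genetic background BY4742, a haploid laboratory strain of the alpha mating type derived from S288C, and every culture of 200 mL was grown in YEP with 2% glucose to an OD600 of 0.8. The labels state neither how the genes were deleted nor whether replicates were grown separately. The p-values therefore reflect spread among these samples that may be technical, and fewer expressing cells cannot be told apart from less RNA per cell.

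Flocculins are adhesins anchored in the yeast cell wall. Flo1, Flo5 and Flo9 bind mannose chains on neighbouring cells and make cells clump, while Flo11 serves invasive and filamentous growth and biofilm formation. Flo8, the main activator, acts downstream of cyclic AMP and protein kinase A together with Mss11. Tec1 acts with Ste12 at the end of the filamentous growth MAP kinase pathway. Ssn6 (gene CYC8) and Tup1 form a corepressor that DNA-binding repressors such as Nrg1 and Sfl1 bring to flocculin promoters. S288C and its derivatives carry a premature stop in FLO8 and do not normally flocculate. The RefSeq annotation of assembly R64 lists FLO8 as a pseudogene, although its transcript is measured here.

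Values are log2 expression levels per probe set, and one unit is a factor of 2. The level of one gene is not set against that of another, since probes differ in brightness. Background was read from 1746 fission yeast probe sets on the same array. Their 95th percentile, the floor, lay between 5.50 and 5.67 on the 7 arrays. All 7 measured genes stood above the floor on every array, the lowest value being 7.75 for FLO1 in wild-type replicate 2. The FLO9 probe set carries the suffix _s_at, which Affymetrix gives to sets matching more than one transcript. FLO1, FLO5 and FLO9 are close in sequence, so signal from one can reach the probe set of another.

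Each deleted gene was low in its own deletion. CYC8 read 5.62 and 6.07 in ssn6 cells, against 11.22, 11.32 and 11.24 in wild type, and TUP1 read 4.69 and 5.07 in tup1 cells, against 12.50, 11.56 and 12.19. The 4 alpha-specific marker genes lay between 12.17 and 13.18 in wild type, and the 6 a-specific ones between 6.22 and 9.74. On wild-type replicate 2 the 3' actin control exceeded the 5' one by 2.85, compared with 0.52 to 0.92 elsewhere. Without that array the same numbers of members were called as given below, 5 in ssn6, 5 in tup1 and 2 between the deletions. The mean of the ribosomal RNA control probe sets was 8.48 and 7.37 in ssn6, 6.70 and 9.06 in tup1, and 10.81, 8.15 and 12.04 in wild type, and the part of these RNA differences in the results was not tested. Precision is limited by having 2 or 3 arrays of each genotype.

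All 4 measured flocculin genes were higher in both deletions than in wild type, by factors of 4.26 to 30.2, with no overlap between the arrays of a deletion and those of wild type. Over all genes, 59.4% did not overlap in this way in ssn6 and 52.0% in tup1. One linear model was fitted with limma to all genes on all 7 arrays, and p-values were adjusted over the 5449 genes by the Benjamini-Hochberg method. All 4 genes passed an adjusted p of 0.05 upward in each deletion, where 9.18% of all genes passed upward in ssn6 and 10.4% in tup1. The median difference of the 4 genes was 3.88 in ssn6 and 3.29 in tup1, and that of all genes −0.14 and −0.08. These 4 rises were called under each of 17 alternative settings in both deletions. The wild-type arrays are shared by both comparisons.

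**Figure D1:**
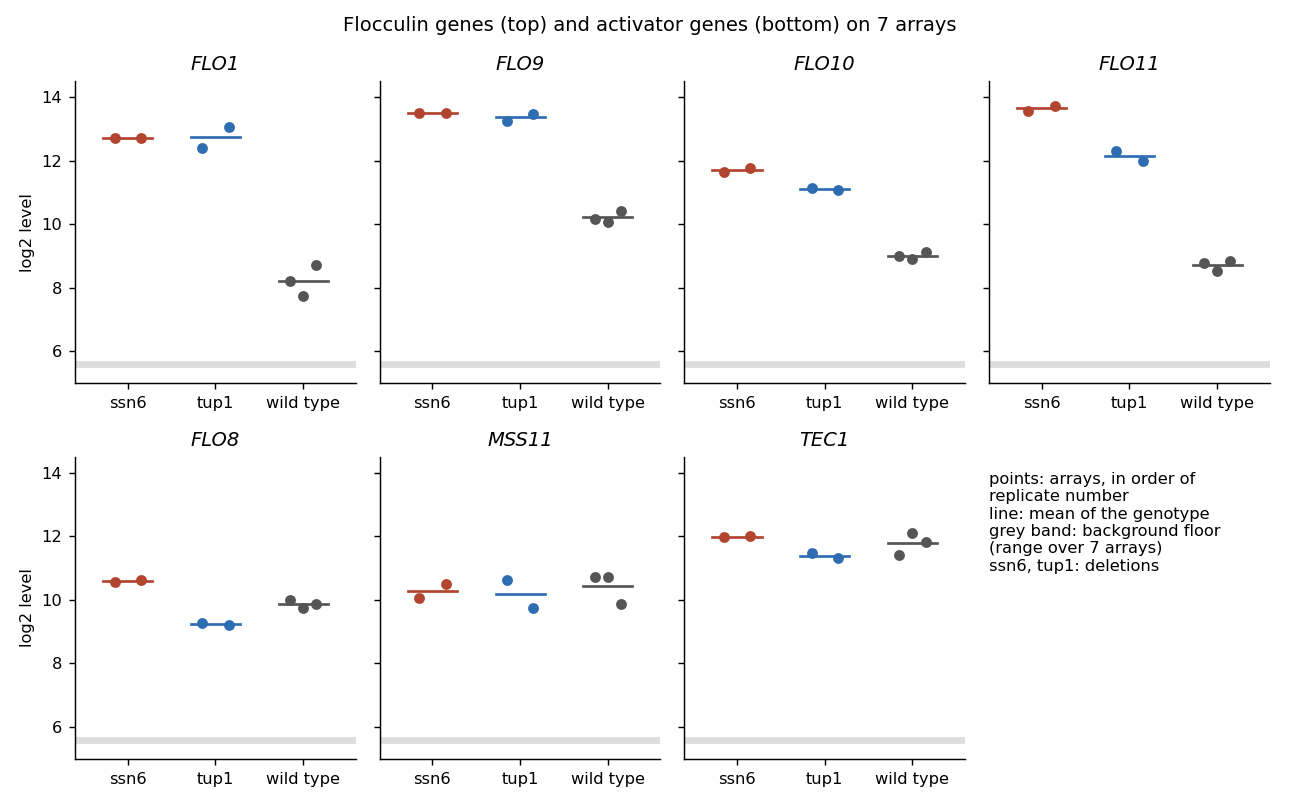
Log2 level (y axis) of the 4 measured flocculin genes and the 3 activator genes on each array of the ssn6 deletion (2 arrays), the tup1 deletion (2) and wild type (3). Points are arrays, lines are genotype means and the grey band is the background floor. The flocculin points of both deletions lie above all wild-type points, FLO11 and FLO8 differ between the deletions, and MSS11 and TEC1 overlap with wild type.

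FLO11, the flocculin of filamentous growth, showed the largest rise of the 4 in the ssn6 deletion. Its log2 level was 13.56 and 13.72 in ssn6 cells and 12.31 and 11.997 in tup1 cells, against 8.79, 8.54 and 8.84 in wild type. The 3 genotypes formed separate steps with no overlap, ssn6 highest and wild type lowest. The rise was 4.92 ± 0.16 (SE) or 30.2-fold in ssn6 (adjusted p = 4.63e-06, n = 2 and 3 arrays), the 15th highest difference of all genes. In tup1 it was 3.43 ± 0.16 or 10.8-fold (adjusted p = 3.09e-05, n = 2 and 3 arrays), at place 40.

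FLO1, which gives the strongest flocculation of the family, rose by nearly the same amount in both deletions. It read 12.71 and 12.72 in ssn6 cells and 12.40 and 13.06 in tup1 cells, against 8.20, 7.75 and 8.72 in wild type. The tup1 arrays enclose the ssn6 arrays, and wild type varied most, with an SD of 0.49 (n = 3). The rise was 4.49 ± 0.31 or 22.5-fold in ssn6 (adjusted p = 9.38e-05) and 4.50 ± 0.31 or 22.7-fold in tup1 (adjusted p = 0.000131). Without wild-type replicate 2, the lowest array, the rises were 4.26 and 4.27.

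The FLO9 probe set, which can also pick up close relatives, read 13.48 and 13.50 in ssn6 cells and 13.24 and 13.48 in tup1 cells, against 10.17, 10.06 and 10.41 in wild type. All deletion arrays lay high and close together. The rise was 3.28 ± 0.16 (9.69-fold) in ssn6 (adjusted p = 2.05e-05) and 3.14 ± 0.16 (8.84-fold) in tup1 (adjusted p = 3.37e-05). How much of this signal came from FLO9, FLO1 or FLO5 was not tested.

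FLO10, for a flocculin less like Flo1 than Flo9 is, rose least. It read 11.64 and 11.76 in ssn6 cells and 11.13 and 11.07 in tup1 cells, against 9.01, 8.91 and 9.11 in wild type. As with FLO11, the arrays of the 3 genotypes did not overlap and ssn6 was highest. The rise was 2.68 ± 0.13 (6.42-fold) in ssn6 (adjusted p = 2.15e-05) and 2.09 ± 0.13 in tup1 (adjusted p = 8.96e-05), at places 87 and 104 among all genes.

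**Figure D2:**
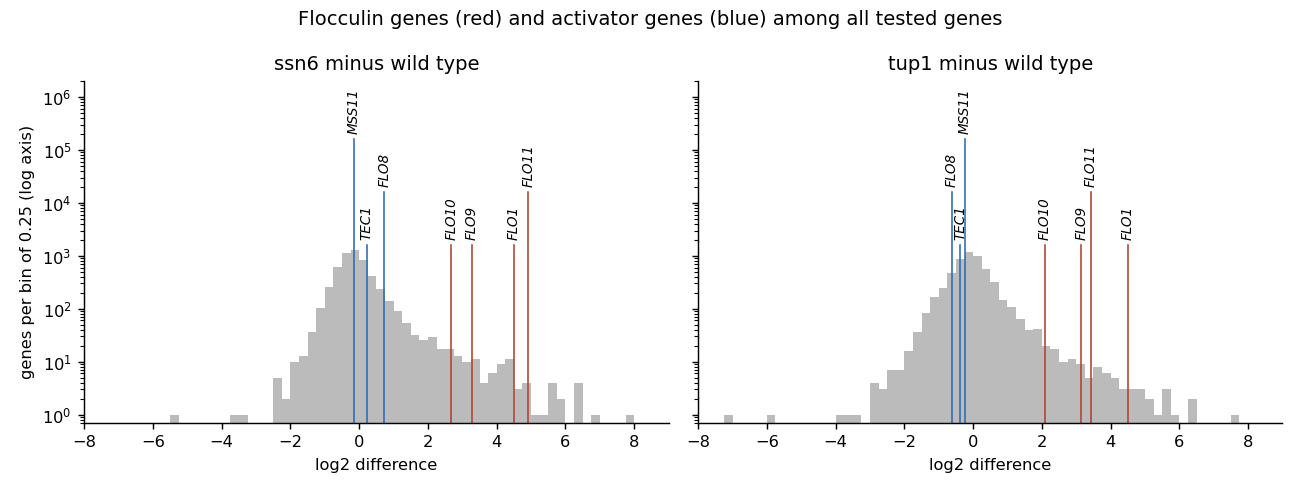
Distribution of the log2 difference from wild type (x axis) over all 5449 genes in the ssn6 deletion (left) and the tup1 deletion (right), as genes per bin on a log axis. Red lines mark the 4 flocculin genes, which lie in the sparse upper tail between 2.09 and 4.92, and blue lines the 3 activator genes, which lie near the bulk.

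The activator genes moved far less than the flocculin genes. FLO8 was higher than wild type in the ssn6 deletion and lower than wild type in the tup1 deletion. Its log2 level was 10.57 and 10.62 in ssn6 cells and 9.27 and 9.22 in tup1 cells, against 9.98, 9.74 and 9.88 in wild type. No array of one genotype overlapped with another, and the 2 arrays of each deletion lay 0.0533 apart in ssn6 and 0.0518 apart in tup1. The difference from wild type was 0.73 ± 0.13 (1.66-fold) in ssn6 (adjusted p = 0.0104, n = 2 and 3 arrays) and −0.62 ± 0.13 in tup1 (adjusted p = 0.0165, n = 2 and 3 arrays).

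Both FLO8 calls against wild type were lost without certain single arrays. The rise was not called without ssn6 replicate 1 (0.76, adjusted p = 0.1003) or ssn6 replicate 2 (0.70, adjusted p = 0.131). The fall was not called without tup1 replicate 1 (−0.65, adjusted p = 0.0715) or without either ssn6 array (adjusted p = 0.0514), which here serve only to estimate the spread, and with the replicate number as a block (adjusted p = 0.0624).

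MSS11, whose product activates flocculin genes jointly with Flo8, did not pass in either deletion. It read 10.05 and 10.49 in ssn6 cells and 10.63 and 9.74 in tup1 cells, against 10.71, 10.70 and 9.86 in wild type. Replicates of one genotype differed by up to 0.88, more than the genotype means, and all 3 groups overlapped. The differences were −0.16 (95% interval −0.99 to 0.67, adjusted p = 0.778) in ssn6 and −0.24 (−1.07 to 0.59, adjusted p = 0.650) in tup1.

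TEC1, the filamentous growth factor that binds DNA with Ste12, also did not pass. Its level was 11.97 and 12.01 in ssn6 cells and 11.47 and 11.32 in tup1 cells, against 11.42, 12.10 and 11.80 in wild type. The wild-type arrays spanned both ssn6 values and 1 of the tup1 values. The difference was 0.21 (95% interval −0.27 to 0.70, adjusted p = 0.487) in ssn6 and −0.38 (−0.86 to 0.10, adjusted p = 0.217) in tup1. In all, 5 of the 7 measured genes were called in each deletion, 5 higher and 0 lower in ssn6, and 4 higher and 1 lower in tup1. Of all genes, 19.4% were called in ssn6, 9.18% higher and 10.3% lower, and 23.0% in tup1, 10.4% higher and 12.6% lower.

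**Figure D3:**
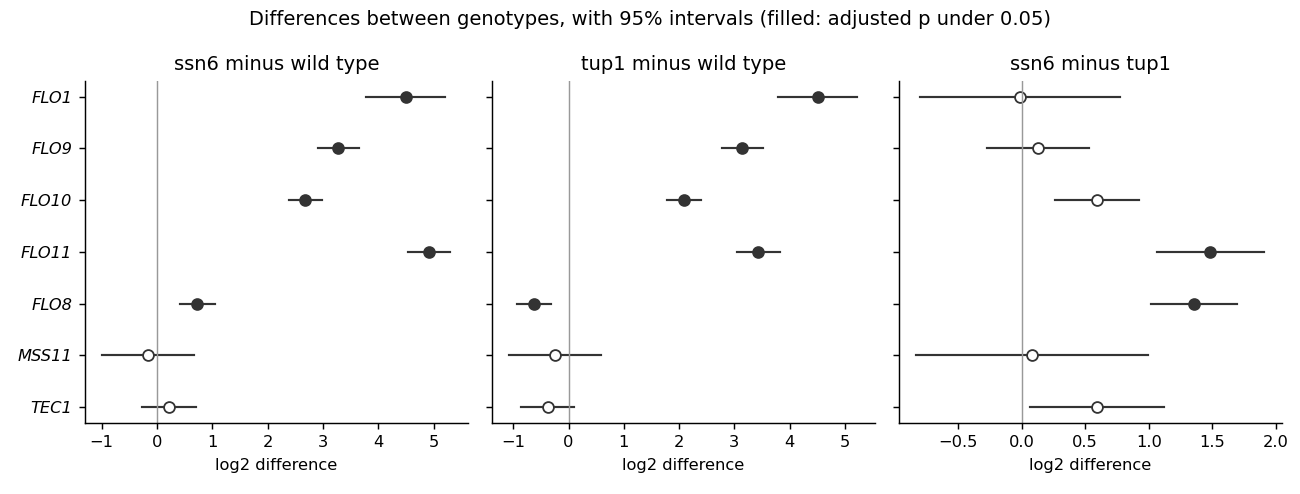
Log2 difference (x axis) with its 95% interval for each of the 7 measured genes in ssn6 minus wild type, tup1 minus wild type and ssn6 minus tup1. Filled points passed an adjusted p of 0.05. In the right panel, whose x axis covers a narrower range, FLO11 and FLO8 are filled, and the other 5 genes are open.

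The deletions were then set against each other, which tests directly whether a gene stood at a different level without Ssn6 than without Tup1. FLO11 and FLO8 were both higher in ssn6 cells, and no member was called lower. FLO8 was higher by 1.35 ± 0.14 or 2.56-fold (95% interval 1.02 to 1.69, adjusted p = 0.00670, n = 2 and 2 arrays). FLO11 was higher by 1.48 ± 0.18 or 2.80-fold (1.06 to 1.91, adjusted p = 0.0122, n = 2 and 2 arrays). These were 2 of 7 genes called, where 2.40% of all genes were called, 1.91% higher and 0.496% lower. The arrays of the 2 deletions did not overlap for 63.6% of all genes. Their ranks among all 5449 differences were 62 for FLO8 and 51 for FLO11.

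Leaving out an ssn6 array ended both calls while the sizes stayed close to those above. Without ssn6 replicate 1 the difference was 1.57 for FLO11 (adjusted p = 0.0923) and 1.38 for FLO8 (adjusted p = 0.0923). Without ssn6 replicate 2 it was 1.40 for FLO11 (adjusted p = 0.155) and 1.33 for FLO8 (adjusted p = 0.121). The count over all genes fell likewise, to 13 and 5 of 5449 without these arrays, against 131 with both.

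The other 5 genes were not called between the deletions, and their intervals differ in what they allow. FLO1 differed by −0.01 (95% interval −0.80 to 0.78, adjusted p = 0.985), a value whose sign turned to 0.01 with quantile normalization and 0.03 with median centring. The FLO9 probe set differed by 0.13 (−0.27 to 0.53, adjusted p = 0.691). FLO10 was 0.59 ± 0.14 higher in ssn6 cells (0.26 to 0.93), which missed the threshold (adjusted p = 0.0843) and passed with array weights (adjusted p = 0.0382). TEC1 read 0.59 ± 0.22 (0.07 to 1.12, adjusted p = 0.213) and MSS11 0.08 ± 0.39 (−0.83 to 0.996, adjusted p = 0.921). Whether the gap between the deletions was larger for FLO11 than for FLO1 or FLO10 was not tested.

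Other transcription factors that activate FLO11 or filamentous growth changed in part. Of 8 measured genes, 4 rose and 4 did not pass in ssn6, and 4 rose, 1 fell and 3 did not pass in tup1, where 9.18% and 10.4% of all genes passed upward and 12.6% passed downward in tup1. Their median difference was 0.63 in ssn6 and 0.52 in tup1. HMS1, for a helix-loop-helix factor that promotes pseudohyphal growth, read 10.33 and 10.39 in ssn6 cells and 10.54 and 10.46 in tup1 cells, against 7.62, 8.07 and 8.39 in wild type. It rose by 2.34 ± 0.22 (adjusted p = 0.000564) and 2.47 ± 0.22 (adjusted p = 0.000422), and every deletion array lay above wild type. PHD1, for another factor of pseudohyphal growth, rose by 1.17 ± 0.17 in ssn6 (adjusted p = 0.00435) and 0.66 ± 0.17 in tup1 (adjusted p = 0.0337). RME1, a repressor of meiosis that activates FLO11, rose by 1.13 ± 0.30 (adjusted p = 0.0395) and 1.24 ± 0.30 (adjusted p = 0.0263). The remaining rise in both deletions was that of ASH1 (0.72 and 0.65), named after its values were seen.

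STE12, the DNA-binding partner of Tec1, had the one fall in this list. It read 10.47 and 10.51 in ssn6 cells and 10.24 and 9.85 in tup1 cells, against 11.21, 11.28 and 10.86 in wild type. All deletion arrays lay below wild type, and the fall passed in tup1 (−1.07 ± 0.19, adjusted p = 0.00831) and not in ssn6 (−0.63 ± 0.19, adjusted p = 0.0559). The direct comparison of the deletions gave 0.44 ± 0.20 (adjusted p = 0.292). MGA1, MIT1 and RIM101 did not pass in either deletion.

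Several of these calls depended on single arrays. Those of HMS1 in both deletions and STE12 in tup1 held without any one array. PHD1 in ssn6 missed the threshold without ssn6 replicate 1 (adjusted p = 0.0591), and in tup1 without wild-type replicate 1 or 3, either ssn6 array or tup1 replicate 1 (up to 0.187) and with the replicate number as a block. RME1 missed it in both deletions without wild-type replicate 1 or any deletion array (up to 0.210 in ssn6 and 0.181 in tup1). ASH1 missed it in ssn6 without either ssn6 array (up to 0.127) and in tup1 without tup1 replicate 2 (adjusted p = 0.0504). STE12 in ssn6 passed without wild-type replicate 3 or either tup1 array, with only the genotypes compared and with array weights. With only the genotypes compared, PHD1 in tup1 and RME1 in both deletions missed the threshold.

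Among the repressors of flocculin genes or of filamentous growth, NRG1, which brings the corepressor to glucose-repressed genes, rose in both deletions. It read 13.08 and 13.20 in ssn6 cells and 12.69 and 12.16 in tup1 cells, against 11.86, 11.27 and 11.08 in wild type. The rise was 1.74 ± 0.26 in ssn6 (adjusted p = 0.00494) and 1.02 ± 0.26 in tup1 (adjusted p = 0.0319), with no overlap with wild type. Its relative NRG2 rose by 1.30 ± 0.20 in ssn6 (adjusted p = 0.00580) and read 0.62 ± 0.20 in tup1 (adjusted p = 0.0687). DIG2, an inhibitor of Ste12, fell by 0.60 ± 0.17 in ssn6 (adjusted p = 0.0478). Of the 6 genes, 2 rose, 1 fell and 3 did not pass in ssn6, and 1 rose and 5 did not pass in tup1, with medians of 0.75 and 0.13. Of all genes, 9.18% rose and 10.3% fell in ssn6, and 10.4% rose in tup1. SFL1, whose product represses FLO11, read 0.67 ± 0.30 in ssn6 (adjusted p = 0.154) and 0.35 ± 0.30 in tup1 (adjusted p = 0.428). SOK2, also on this list, read 0.82 ± 0.24 in ssn6 (adjusted p = 0.0522) and −0.14 ± 0.24 in tup1 (adjusted p = 0.689). In ssn6 it passed with quantile normalization, median centring, trend and robust settings and array weights, and without wild-type replicate 2.

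The ssn6 rises of NRG1 and NRG2 missed the threshold without ssn6 replicate 2 (adjusted p = 0.0523 and 0.0671). The tup1 rise of NRG1 missed it without wild-type replicate 2 or 3, either ssn6 array or tup1 replicate 1 (up to 0.209) and with the replicate number as a block. NRG1 in tup1 also missed the threshold with array weights and with only the genotypes compared. NRG2 passed in tup1 without wild-type replicate 2 (adjusted p = 0.0282), with trend and robust settings and with array weights. The fall of DIG2 missed it without any one wild-type or ssn6 array (up to 0.265), and also with quantile normalization, median centring, trend and robust settings, and the replicate block.

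**Figure D4:**
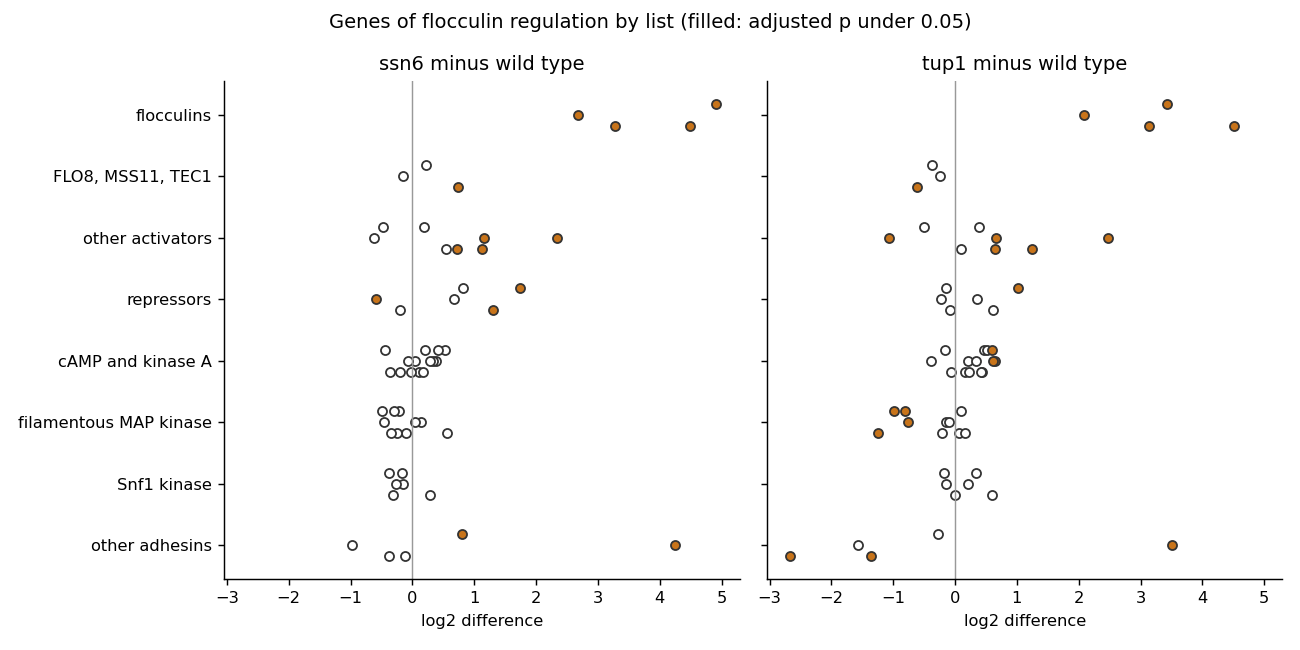
Log2 difference from wild type (x axis) of each measured gene, by list, in the ssn6 deletion (left) and the tup1 deletion (right). Filled points passed an adjusted p of 0.05, and vertical offsets within a list carry no meaning. The 4 flocculin genes lie above 2 in both panels, while most genes of the signalling lists lie within one unit of 0.

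Genes of the signalling pathways upstream of Flo8 and Tec1, and those of the Snf1 kinase, moved little in the ssn6 deletion. By limma's adjusted p, 0 of 14 measured genes for cyclic AMP and protein kinase A signalling passed in ssn6, and so did 0 of 10 for the filamentous growth MAP kinase pathway and 0 of 6 for the Snf1 kinase. Of all genes, 19.4% passed in ssn6. The medians of the 3 lists were 0.14, −0.24 and −0.21, and the largest differences 0.53, 0.56 and −0.38. In tup1 the cyclic AMP list gave 3 rises of 14, where 10.4% of all genes rose, with a median of 0.38. They were CYR1, adenylate cyclase, by 0.65 ± 0.18 (adjusted p = 0.0424), GPB2, an inhibitor of kinase A signalling, by 0.61 ± 0.14 (adjusted p = 0.0238), and MEP2, an ammonium permease needed for pseudohyphal growth, by 0.60 ± 0.16 (adjusted p = 0.0384). The Snf1 list had 0 calls in tup1, and its median was 0.10.

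The list for the filamentous MAP kinase pathway includes FUS3 and other genes of the pheromone response. Of this list, 4 of 10 genes fell in tup1 and 0 rose, where 12.6% of all genes passed downward. The median of the list was −0.18. MSB2, for the signalling mucin at the head of the pathway, read 11.53 and 11.73 in ssn6 cells and 10.02 and 9.61 in tup1 cells, against 11.46, 10.80 and 10.95 in wild type. As for FLO8, tup1 lay below wild type (−1.25 ± 0.23, adjusted p = 0.0105), ssn6 lay higher than wild type without passing (0.56 ± 0.23, adjusted p = 0.130), and the deletions differed by 1.81 ± 0.25 (adjusted p = 0.0187). The other falls in tup1 were those of KSS1, the MAP kinase (−0.99 ± 0.24, adjusted p = 0.0252), SHO1, a membrane adaptor (−0.81 ± 0.17, adjusted p = 0.0174), and STE20, a kinase (−0.76 ± 0.14, adjusted p = 0.0114). None of these 3 was called between the deletions, the lowest adjusted p being 0.162 for SHO1.

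STE12, STE20 and KSS1 also serve the pheromone response, as do other genes of the MAP kinase list that did not pass in tup1. Among these were STE50 (0.09), STE11 (0.07), STE7 (0.16), CDC42 (−0.22) and FUS3 (−0.14). Mating-type genes moved in these cells. The 6 a-specific marker genes rose in both deletions, where 9.18% of all genes rose in ssn6 and 10.4% in tup1. Their mean per array was 11.65 in both ssn6 samples and 10.47 to 10.48 in tup1, against 7.70 to 8.12 in wild type. The BAR1 call in tup1 (0.67 ± 0.15, adjusted p = 0.0193) was lost with quantile normalization and with trend and robust settings. It was also lost with only the genotypes compared, with the replicate block, and without either ssn6 array or tup1 replicate 1. The STE6 call was lost in each deletion without either array of that deletion. Of the 4 alpha-specific marker genes, 2 fell in ssn6 and 4 in tup1. Their array means were 11.73 to 11.80 in ssn6 and 9.03 to 9.36 in tup1, against 12.53 to 12.80 in wild type. Of all genes, 10.3% fell in ssn6 and 12.6% in tup1. One of the ssn6 falls, that of the pheromone gene MF(ALPHA)2 (−0.55 ± 0.14, adjusted p = 0.0341), was lost with median centring, with the replicate block, and on leaving out any single ssn6 array, wild-type replicate 1 or wild-type replicate 3 (up to 0.236). The part of mating type in the pathway differences was not tested.

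These signalling calls were weak against the loss of one array. The calls of CYR1, GPB2 and MEP2 were each lost without either ssn6 or either tup1 array and without 1 or 2 of the wild-type arrays, among them replicate 1 for CYR1, replicate 3 for GPB2 and replicates 2 and 3 for MEP2 (adjusted p up to 0.161, 0.123 and 0.195). KSS1 was lost likewise without any one array but wild-type replicate 2 (up to 0.112), and it passed in ssn6 without that array (adjusted p = 0.0262). In tup1, SHO1 and STE20 were lost without tup1 replicate 1 (adjusted p = 0.118 and 0.0767), and MSB2 without tup1 replicate 2 (adjusted p = 0.0506). The MSB2 difference between the deletions was lost without any one deletion array (up to 0.201). With the replicate number as a block, and with only the genotypes compared, the calls of CYR1, GPB2, MEP2 and KSS1 were lost too. That of CYR1 was also lost with quantile normalization and with median centring, and that of MEP2 with array weights. Calls were gained as well. With array weights, GPA2 rose and RAS2, PDE1, STE20, KSS1, SNF4 and GAL83 fell in ssn6. GPA2 and RAS2 also passed there with trend and robust settings, and RAS2 without wild-type replicate 3. In tup1, GPR1 rose with quantile normalization, median centring and array weights, and without wild-type replicate 2. GPA2, GPB1 and BCY1 rose there with trend and robust settings, and GPB1 without wild-type replicate 2.

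Adhesin genes other than the flocculin genes followed above went different ways. YHR213W, which is annotated as a short relative of the flocculins, read 8.50 and 9.20 in ssn6 cells and 8.08 and 8.13 in tup1 cells. In wild type it lay under the floor on all 3 arrays, at 4.60, 4.14 and 5.04. It was at least 9.66-fold higher in ssn6 (adjusted p = 0.000107) and at least 5.77-fold higher in tup1 (adjusted p = 0.000365). Shared sequence could carry signal from a flocculin gene to this probe set, which was not tested. SAG1, AGA1 and FIG2, for mating adhesins, did not pass upward in tup1. AGA2, the binding subunit of a-agglutinin and one of the a-specific marker genes, rose by 5.12 ± 0.19 in ssn6 (adjusted p = 6.14e-06) and 4.13 ± 0.19 in tup1 (adjusted p = 2.30e-05). SAG1, alpha-agglutinin, read 12.39 and 12.52 in ssn6 cells and 10.48 and 9.86 in tup1 cells, against 12.99, 12.61 and 12.91 in wild type, a fall of 2.66 ± 0.21 in tup1 (adjusted p = 0.000290).

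AGA1, the anchor subunit of a-agglutinin, fell by 1.36 ± 0.18 in tup1 (adjusted p = 0.00302) and read −0.13 ± 0.18 in ssn6 (adjusted p = 0.651). FIG2, a mating adhesin, rose by 0.80 ± 0.16 in ssn6 (adjusted p = 0.0160) and read −0.28 ± 0.16 in tup1 (adjusted p = 0.240). Of the 5 measured genes, 2 rose in ssn6, and 1 rose and 2 fell in tup1, where 9.18% of all genes rose in ssn6, and 10.4% rose and 12.6% fell in tup1. Between the deletions 1.91% of all genes were called higher in ssn6, among them SAG1, AGA1 and FIG2, by 2.28 ± 0.24 (adjusted p = 0.00663), 1.24 ± 0.20 (adjusted p = 0.0296) and 1.08 ± 0.18 (adjusted p = 0.0300). All 3 of these differences were lost without either ssn6 array (adjusted p up to 0.310), and those of AGA1 and FIG2 also without wild-type replicate 1 or either tup1 array. The FIG2 rise in ssn6 was lost without either ssn6 array. With the replicate number as a block it was lost too, as were the AGA1 and FIG2 differences. The AGA1 difference was also lost with only the genotypes compared.

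FLO1, FLO9 and FLO10 lie close to chromosome ends and FLO11 lies farther in, by gene order in assembly R64. FLO10 was the 5th, FLO1 the 6th and FLO9 the 9th gene from the nearer end of its chromosome, and FLO11 the 25th. Up to 3 measured genes on each side of a flocculin gene were compared with it. Of 23 neighbours, 9 rose and 0 fell in each deletion, and 9.18% and 10.4% of all genes rose. The median neighbour differed by 0.60 in ssn6 and 0.59 in tup1, below each of the 4 flocculin genes.

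The risen neighbours lay mainly beside FLO1 and FLO9. Beside FLO1, 4 of 6 rose in ssn6 and 3 of 6 in tup1, with medians of 1.63 and 1.03. On the side of the chromosome end, YAR068W rose by 2.87 ± 0.19 (adjusted p = 8.04e-05) and 1.84 ± 0.19 (adjusted p = 0.000834), and YAR064W by 2.00 ± 0.35 and 1.22 ± 0.35. YAR066W rose by 3.26 ± 0.66 in ssn6 (adjusted p = 0.0161) and read 2.21 ± 0.66 in tup1 (adjusted p = 0.0504). On the other side YAT1, a carnitine acetyltransferase gene, rose by 0.99 ± 0.23 and 0.81 ± 0.23, and SWH1, the nearest measured gene, did not pass (0.32 and 0.46). YAR035C-A, which lies between them, read 1.27 ± 0.41 in ssn6 (adjusted p = 0.0720) and 0.84 ± 0.41 in tup1 (adjusted p = 0.182). The probe sets of YAR064W and YAR066W carry the suffix _s_at, as that of FLO9 does, so their signal can include other transcripts.

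Beside FLO9, 3 of 6 rose in ssn6 and 4 of 6 in tup1, with medians of 0.91 and 1.39. YAL064W rose by 2.66 ± 0.34 (adjusted p = 0.00235) and 2.67 ± 0.34 (adjusted p = 0.00222). TDA8 lay under the floor in wild type and was at least 2.39-fold higher in ssn6 and at least 3.68-fold higher in tup1. GDH3, a glutamate dehydrogenase gene, rose by 1.06 ± 0.16 and 1.40 ± 0.16, and YAL063C-A by 1.38 ± 0.24 in tup1. BDH1 and BDH2, for butanediol dehydrogenases, did not pass (adjusted p of 0.158 or more in ssn6, and 0.231 and 0.0501 in tup1).

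Fewer neighbours passed beside FLO10 and FLO11. Beside FLO10, 1 of 5 rose in each deletion, YKR104W in ssn6 (0.63 ± 0.18, adjusted p = 0.0475) and the silencing gene SIR1 in tup1 (0.73 ± 0.19, adjusted p = 0.0313). BAS1 there read 0.74 ± 0.28 in ssn6 (adjusted p = 0.106) and 0.18 ± 0.28 in tup1 (adjusted p = 0.675). Beside FLO11, 1 of 6 rose in each, MRS1 for mitochondrial RNA splicing, by 0.60 ± 0.13 (adjusted p = 0.0186) and 0.59 ± 0.13 (adjusted p = 0.0182). The bZIP factor genes YAP5 and MET28, on the other side of FLO11, did not pass in either deletion. YAP5 read −0.71 ± 0.33 in ssn6 and −0.61 ± 0.33 in tup1, and MET28 0.41 and 0.04. Median neighbours differed by 0.54 and 0.28 beside FLO10 and by 0.15 and 0.06 beside FLO11. Whether the neighbourhoods differ from each other was not tested.

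The calls of YAR068W, YAL064W and TDA8 in both deletions and of GDH3 in tup1 held without any one array. Lost without ssn6 replicate 1 were the ssn6 calls of YAR064W (adjusted p = 0.0811) and GDH3 (0.0724), and without either ssn6 array that of YAR066W (up to 0.129). The tup1 call of YAL063C-A was lost without tup1 replicate 1 (0.0594), and this gene passed in ssn6 without wild-type replicate 3 (0.0109). YAR066W passed in tup1 without wild-type replicate 2 (0.0267), and BDH2 passed in both deletions without wild-type replicate 1 (0.0290 and 0.0106). In tup1 both genes also passed with quantile normalization, the filter at the floor, and trend and robust settings. BDH2 passed there with median centring and with the mean of probe sets as well. The tup1 call of YAR064W (adjusted p up to 0.205) and the calls of YAT1 (up to 0.268), SIR1 (up to 0.182), YKR104W (up to 0.246) and MRS1 (up to 0.193) were each lost without any of 3 or more single arrays. With the replicate block, the calls of MRS1 in both deletions and of SIR1 and YAT1 in tup1 were lost, and YAL063C-A passed in ssn6. With only the genotypes compared, the tup1 calls of YAR064W, YAT1, SIR1 and MRS1 and the ssn6 call of YKR104W were lost. That of YKR104W was also lost with quantile normalization and with trend and robust settings. With array weights, YAP5 fell and BAS1, SIR1, YAR035C-A and YAL063C-A rose in ssn6. BAS1 and YAR035C-A also passed there without wild-type replicate 2 (adjusted p = 0.0146 and 0.0433).

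**Figure D5:**
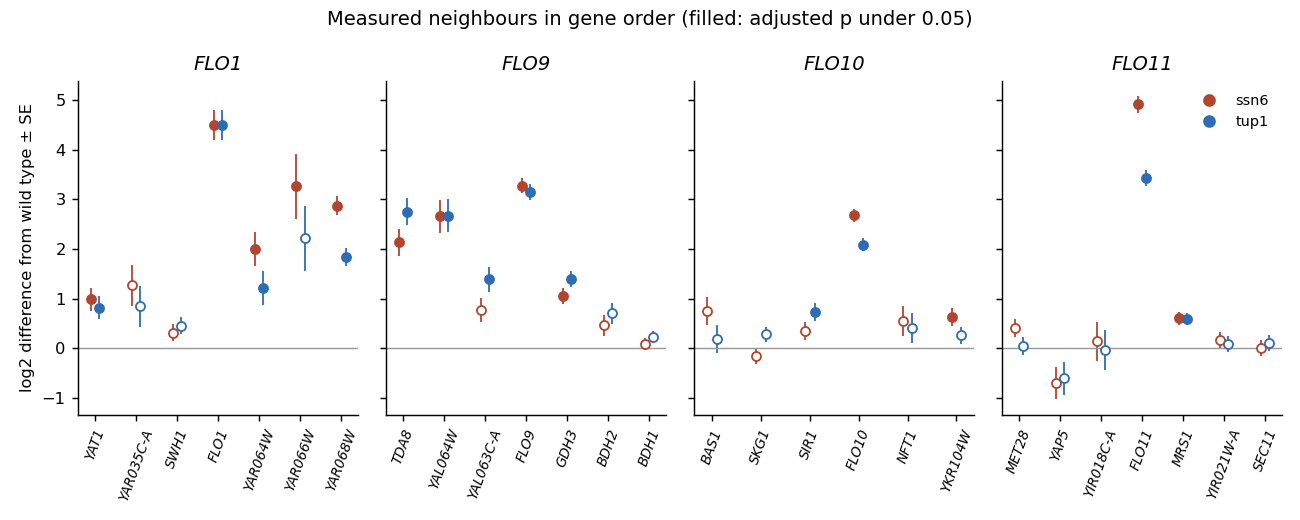
Log2 difference from wild type (y axis, ± SE) of each flocculin gene and its measured neighbours in gene order (x axis, not to distance), with the ssn6 deletion in red and the tup1 deletion in blue. Filled points passed an adjusted p of 0.05, and the TDA8 points are fitted values with wild type under the floor. Risen neighbours are frequent beside FLO1 and FLO9, while 1 gene per deletion passed beside FLO10 and 1 beside FLO11.

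For each flocculin gene, the 3 genes with the most similar values over the 7 arrays were found by the root mean square distance between log2 values taken relative to each gene's wild-type mean. FLO1 was closest to YAL065C, which is annotated as similar to flocculins, at a distance of 0.34. That gene differed from wild type by 4.53 in ssn6 and 4.32 in tup1, and shared sequence could carry signal between it and FLO1. The next were YMR244W (0.36) and DSF1, a mannitol dehydrogenase gene (0.37). The FLO9 probe set was closest to the isomaltase gene IMA5 (0.25), WSC4, for a cell wall stress protein (0.25), and RTA1, for a membrane protein (0.28).

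FLO10 had the closest matches of the 4. The sterol transporter gene PDR11 lay at a distance of 0.09, SMP1, for a MADS-box factor, at 0.10, and ZPS1, a gene regulated by zinc and pH, at 0.15. FLO11 was closest to the isomaltase gene IMA1 (0.38), SET4, for a SET-domain protein (0.39), and the seripauperin gene PAU3 (0.42). Of these 3, SET4 was, like FLO11, called higher in ssn6 than in tup1 (1.16 ± 0.19, adjusted p = 0.0300). That call was lost without wild-type replicate 1 or any deletion array. It was also lost with quantile normalization, with trend and robust settings, and with the replicate block. The DSF1 and PAU3 probe sets also carry the suffix _s_at. Distances describe 7 arrays of 3 genotypes, and genes with a large rise have few others near them.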

How the data were processed

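RNA of 7 yeast samples was measured on one Affymetrix array each. The authors deposited one log2 expression value per probe set and array, already normalized. Per the submitters' processing notes RMA and limma were used, with role and version not given. Such values come without detection calls, and fold changes of dim genes are compressed in them. Of 10928 probe sets, 5498 have 1 budding yeast gene in the platform annotation. This gave 5449 genes, 47 of them with several probe sets, of which the brightest on average was kept. Gene names and gene order came from RefSeq's table of assembly R64, with no coordinates used.

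A mean per genotype was fitted with limma 3.58.1 in R 4.3.3 (lmFit, eBayes, 4 residual and 3.19 prior degrees of freedom), two-sided, and adjusted by Benjamini-Hochberg over 5449 genes with 0.05 as the threshold. The fit was tested on simulated data. For a gene below the floor throughout a genotype, the fold is a bound (at least N-fold), computed against whichever is higher on each array, floor or measured value. Alternatives were median centring, quantile normalization, a filter at the floor (above it on at least 2 arrays), eBayes with trend and robust, fitting only the genotypes compared, array weights, a replicate block, averaging a gene's probe sets, a threshold of 0.01, and the omission of each array. Where an omission leaves 1 array of a genotype, its spread is taken from the other groups. A block with the ssn6 numbers exchanged was added after seeing the data.

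The members, lists, tests and alternatives were chosen with earlier results of these data known. Named are the 8 members, CYC8 and TUP1, and up to 4 called genes per list with the largest change. The 3 genes closest to each flocculin gene are also named. Of up to 3 measured neighbours on each side of a flocculin gene, those called and some others are named. Other names were chosen after their values were seen. Sequences are not used here. Plots used matplotlib 3.10.9 in Python 3.11.15.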

Additional observations from a re-analysis of the deposited data

Results flagged for a closer look

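For 2 members the change from wild type differed between the deletions by the direct test of ssn6 against tup1. FLO11 was higher in ssn6 cells by 1.48 on the log2 scale, with both ssn6 arrays above both tup1 arrays. FLO8 was higher in ssn6 cells by 1.35, with ssn6 above wild type and tup1 below it on every array. Non-overlap by itself is common in this comparison, since 63.6% of all genes have arrays that do not overlap between the 2 deletions.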

How the results depend on the processing

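Over 21 log2 differences of members and 17 alternatives, 335 of 357 values kept their direction and their side of the threshold, 14 lost the call, 1 gained it and 7 changed sign, none of these being called. The sign changes were FLO1 between the deletions with quantile normalization (0.0056), median centring (0.0261) and single arrays left out (−0.34 to 0.32), and MSS11 with single arrays left out (−0.44 to 0.0644 in ssn6, −0.68 to 0.20 in tup1, −0.36 to 0.52 between the deletions). Member calls numbered 4 to 5 in ssn6, 4 to 5 in tup1 and 0 to 2 between the deletions with single arrays left out, and 1 between the deletions at an adjusted p of 0.01. FLO8 in tup1 also missed the threshold with only the genotypes compared (adjusted p = 0.0514) and with the replicate number as a block (−0.62, adjusted p = 0.0624). The 6 regulator and adhesin lists held 8, 6, 14, 10, 6 and 5 measured genes. Of all genes, 19.4% were called in ssn6, 23.0% in tup1 and 2.40% between the deletions. Genes of the 6 regulator and adhesin lists called in ssn6 were 9, against 20 with array weights, 5 at 0.01 and 4 to 10 with single arrays left out. In tup1 they were 16, against 10 with only the genotypes compared, 10 with the replicate block, 5 at 0.01 and 7 to 17 with single arrays left out. Between the deletions they were 4, against 2 with the block, 1 at 0.01 and 0 to 5 with single arrays left out. Counts over all genes were 1059 in ssn6 (2139 with array weights, 397 at 0.01, 279 to 1196 with single arrays left out), 1255 in tup1 (767 with only the genotypes compared, 456 at 0.01, 427 to 1366) and 131 between the deletions (412 with array weights, 58 with the block, 25 at 0.01, 5 to 257). The cause of these shifts was not tested, and dropping an array also leaves fewer of them. The replicate numbers share no stated batch. Same-numbered deviations correlated at −0.27 between ssn6 and tup1, −0.35 between ssn6 and wild type and 0.25 between tup1 and wild type. With the ssn6 numbers exchanged in the block, 5, 5 and 2 members were called. The filter at the floor and the mean of probe sets changed no member's call.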
